A study of Homo sapiens with 4 samples.

Results

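The 9 genes described here encode very large ubiquitin ligases: HERC1, HERC2, HUWE1 and TRIP12, whose catalytic part is a HECT domain, UBR3 and UBR4, which carry a UBR box, the RING-type ligases MYCBP2 and RNF213, and BIRC6. They were picked by symbol, and all 9 were found among the 61541 gene rows of each file. The choice was made with the difference between nanoparticle and PBS libraries already known, so their fold changes are given as a description, with standard errors (SE) and with no p-value, and no statement rests on them as a test. The cells were H1299, an established human lung carcinoma line, exposed to nanoparticles made from ginseng (2 libraries) or to phosphate-buffered saline, PBS, as the control (2 libraries). The design text has particles from seeds, leaves, stems and roots, and the labels do not say which were used here, nor the dose or time. Nothing says that the 2 libraries of a group came from separate cultures, so that the spread between them may be technical. The study concerned the growth and migration of cancer cells exposed to such particles, and sequencing was done for transcripts linked to migration.

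Ubiquitin is activated by an E1 enzyme, handed to an E2 enzyme and placed on a target protein by an E3 ligase, which chooses the target. HECT ligases take the ubiquitin onto a cysteine of their own before passing it on, whereas most RING-type ligases bring the loaded E2 and the target together. Ligases with a UBR box are known for recognising the first residues of proteins in the N-degron pathway. BIRC6 joins an E2 domain and an inhibitor-of-apoptosis domain in a single chain.

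The label giant fits 7 of the 9 proteins. By the coding sequence of their principal transcripts in GENCODE 29, RNF213 has 5207 residues, UBR4 5183, HERC1 4861, BIRC6 4857, HERC2 4834, MYCBP2 4640 and HUWE1 4374. TRIP12, at 2040 residues, and UBR3, at 1888, are smaller. Transcript lengths follow: 21055 bases for RNF213, between 14736 and 15906 for the 6 others of the large group, 8005 for UBR3 and 6405 for TRIP12, against a median of 2856.5 for all tested genes. The genes were built of 39 exons in UBR3 to 106 in UBR4. The GC content of the transcripts ran from 40.3% in UBR3 to 53.3% in HERC2, with a median of 47.0%, against 48.7% over all tested genes.

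On build GRCh38 the genes lie on 5 autosomes and the X chromosome. HERC1 (ENSG00000103657) and HERC2 (ENSG00000128731) are both on chromosome 15, at 63608618 to 63833942 and 28111040 to 28322152. BIRC6 (ENSG00000115760, 32357028 to 32618899), UBR3 (ENSG00000144357, 169827458 to 170084131) and TRIP12 (ENSG00000153827, 229763838 to 229923239) are on chromosome 2. UBR4 (ENSG00000127481) is on chromosome 1 at 19074506 to 19210276, and MYCBP2 (ENSG00000005810) is on chromosome 13 at 77044655 to 77327050. RNF213 (ENSG00000173821) is on chromosome 17 at 80260866 to 80398786, and HUWE1 (ENSG00000086758) is on chromosome X at 53532096 to 53686729.

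Since the genes were counted from short reads, near-identical copies matter, and HERC2 is the member with such copies. Of the 50-base words in its principal transcript 23.2% also stood in transcripts of other genes, mostly its pseudogenes HERC2P9 (17.5%), HERC2P2 (13.0%) and HERC2P3. UBR4 (2.16%) and RNF213 (2.12%) shared words mostly with other annotated transcripts that overlap them, and the other 6 members shared none. The stretch below runs from bases 1115 to 1174 of the HERC2 coding sequence on chromosome 15. It is shown with the matching stretch of 3 pseudogene transcripts, all from GENCODE 29, as an example of a near-identical stretch. The search asked for 16 shared first bases and at most 4 differing bases. The small number of differences was therefore set by the search. Capitals mark the bases that differ from HERC2, 3 in each pseudogene.
HERC2: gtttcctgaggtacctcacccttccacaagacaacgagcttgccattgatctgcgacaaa
HERC2P2: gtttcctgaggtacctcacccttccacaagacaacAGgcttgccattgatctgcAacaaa
HERC2P3: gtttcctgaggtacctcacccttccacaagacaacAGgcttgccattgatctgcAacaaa
HERC2P9: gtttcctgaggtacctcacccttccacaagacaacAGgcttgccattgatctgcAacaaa

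Promoters were read from RefSeq (GRCh38.p14), which held a promoter for all 9 genes. In the 250 bases before the start, the GC box (GGGCGG, either strand) stood in at least 1 promoter of all 9, against 46.2% of 27305 genes, and the median GC content of the members' 14 promoters was 69.0%, against 58.0% for all promoters. The core of the antioxidant response element (TGACNNNGC, either strand) stood in HERC1 alone, against 13.2% of genes. CCAAT was found for 3 members (37.0% of genes), CCGGAAG for BIRC6 and HERC2 (10.2%), TATAAA for TRIP12 (13.0%), and neither the NRF1 core (6.2%) nor AAGATGGC (1.64%) for any, all sought on both strands. These are matches of letters, not sites shown to be used. The 27305 genes were not limited to those tested, nor matched to the members in GC content or number of promoters. The last 100 bases before the start are printed for the members with the largest fold changes, HERC2 and MYCBP2, and for HERC1, which holds the antioxidant core. Capitals mark the motifs named above, and none of the marked matches overlap. The positions are chr15:28322180-28322279, chr13:77327095-77327194 and chr15:63833949-63834048, all on the minus strand.
HERC2: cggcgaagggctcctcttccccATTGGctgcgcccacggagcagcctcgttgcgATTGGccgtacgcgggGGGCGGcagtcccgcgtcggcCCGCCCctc
MYCBP2: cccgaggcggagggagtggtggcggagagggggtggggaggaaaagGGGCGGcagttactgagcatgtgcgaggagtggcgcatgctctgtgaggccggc
HERC1: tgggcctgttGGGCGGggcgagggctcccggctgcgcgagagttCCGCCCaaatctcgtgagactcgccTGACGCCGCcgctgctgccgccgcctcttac

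Counts on genes were between 24863313 and 24979081 in the nanoparticle libraries and between 22252686 and 22456882 in the PBS libraries. Values below are in CPM, that is counts scaled to a common library size after TMM normalisation. The epithelial keratins KRT8 and KRT18 were at 587 CPM or more in every library. KRT18 fell to 927 and 915 CPM in nanoparticle libraries, against 1019 and 1032 CPM in PBS libraries (edgeR quasi-likelihood test, adjusted p = 0.000526). The epithelial or lung markers KRT19, EPCAM, NAPSA, SFTPC and NKX2-1 were each at or under 1.03 CPM. Summed over 5 immune, 5 endothelial and 6 fibroblast markers, no list exceeded 1.57 CPM in any library.

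The giant ligases were higher with nanoparticles, from 1.15-fold in RNF213 to 1.30-fold in HERC2, and 1.04-fold in TRIP12. In all 9 members both nanoparticle libraries lay above both PBS libraries, a pattern that 23.7% of the 15778 tested genes showed. In the edgeR quasi-likelihood fit over all genes, 8 of the 9 had an adjusted p under 0.05, all higher, where 2.58% of tested genes were called, 1.75% higher and 0.83% lower. Nothing is read from either count, since the members were proposed from this contrast. Their median log2 fold change was 0.31, a fold of 1.24, against 0.00056 over all tested genes. Together they held 0.134% and 0.139% of gene counts in nanoparticle libraries against 0.116% and 0.120% in PBS libraries. As the RNA was bulk, a change in RNA per cell and a change in the number of cells that carry it cannot be told apart.

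**Figure D1:**
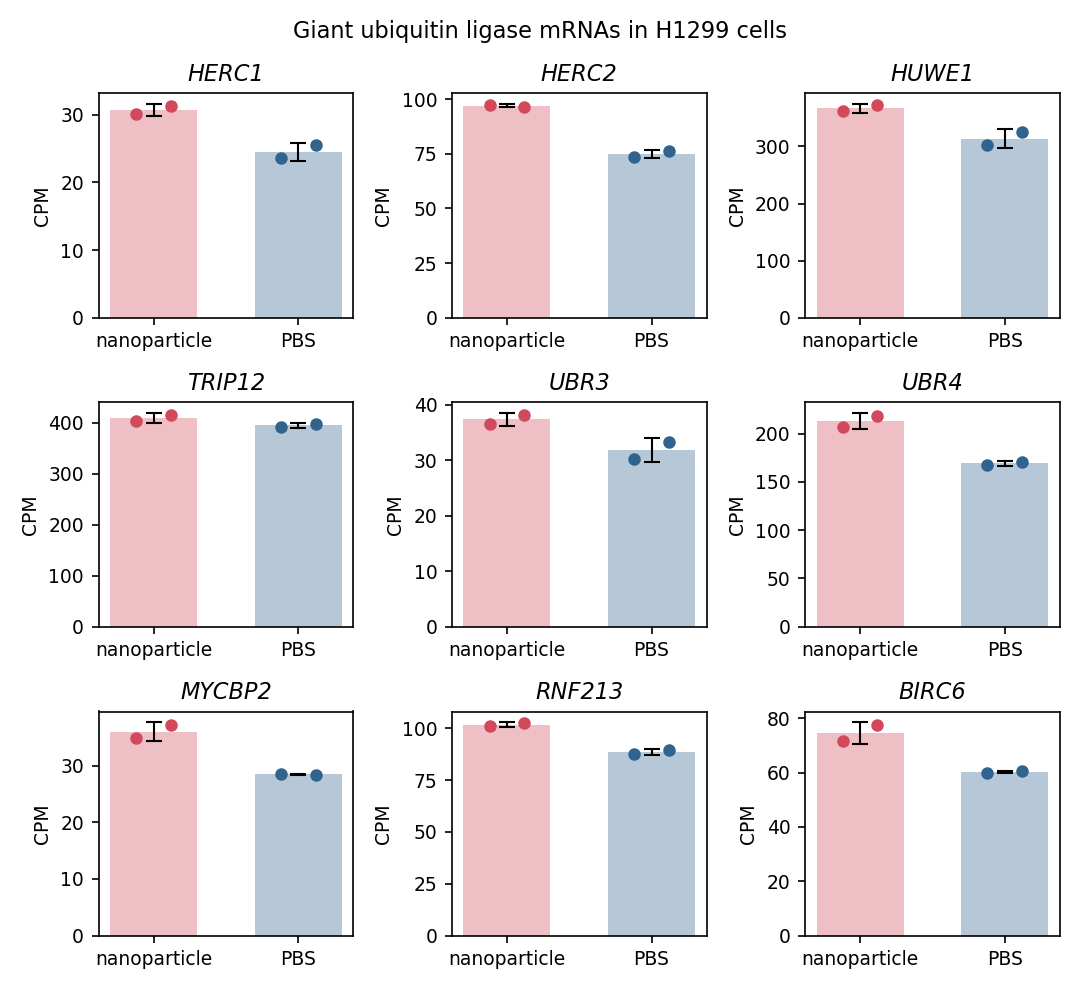
Level of each of the 9 mRNAs in CPM (vertical axes, each from 0), with nanoparticle libraries at the left and PBS libraries at the right. Bars are means, whiskers are the SD of 2 libraries and dots are the libraries. Both nanoparticle dots lie above both PBS dots in each panel, by the narrowest margin in TRIP12.

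Among the HECT ligases, HERC2 differed the most. It is known for its part in the response to DNA double-strand breaks, where it works with RNF8, and as a partner of UBE3A. HERC2 had 97.6 and 96.6 CPM in nanoparticle libraries, against 73.5 and 76.1 CPM in PBS libraries. The groups were far apart, with the lower nanoparticle library 27.0% above the higher PBS library. The log2 fold change was 0.38 (SE 0.040). Its pseudogenes had 1154 and 1307 counts together in nanoparticle libraries and 942 and 1046 in PBS libraries, and none of the 6 tested passed in the same fit (adjusted p = 0.119 for HERC2P4 and 0.397 or more for the others). With their counts added to those of HERC2 the log2 fold change was 0.30 (SE 0.038).

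HERC1, the other large HERC protein with RCC1-like repeats, had 30.1 and 31.3 CPM in nanoparticle libraries, against 23.6 and 25.5 CPM in PBS libraries. The log2 fold change was 0.32 (SE 0.065), and the gap between the nearest libraries was 18.0%. It was the least abundant member and the one with the widest error.

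HUWE1, which marks MCL1, MYC and many other proteins for degradation, had 361 and 372 CPM in nanoparticle libraries, against 302 and 325 CPM in PBS libraries. Its log2 fold change was 0.22 (SE 0.034). The PBS libraries had an SD of 16.3 CPM around a mean of 314, and the groups did not overlap. TRIP12, a nuclear ligase of the ubiquitin fusion degradation pathway, had 403 and 416 CPM in nanoparticle libraries, against 391 and 398 CPM in PBS libraries. The log2 fold change of 0.052 (SE 0.029) did not pass, and the nearest libraries were 1.07% apart. TRIP12 was the most abundant member and the one with the shortest transcript.

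Of the pair with a UBR box, UBR4 binds proteins with destabilising first residues and works with KCMF1. It had 207 and 219 CPM in nanoparticle libraries, against 168 and 171 CPM in PBS libraries. Its log2 fold change was 0.33 (SE 0.035), with 21.1% between the nearest libraries. UBR3, a relative of UBR1 and UBR2, had 36.6 and 38.1 CPM in nanoparticle libraries, against 30.3 and 33.3 CPM in PBS libraries. The log2 fold change was 0.23 (SE 0.060), and UBR3 was called in 5 of the 14 alternative fits.

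MYCBP2 is a RING-type ligase that passes ubiquitin on through cysteines of its own, is known from axon growth and degeneration, and works with FBXO45. It had 34.8 and 37.2 CPM in nanoparticle libraries, against 28.5 and 28.4 CPM in PBS libraries. The PBS libraries were nearly equal, and the log2 fold change was 0.34 (SE 0.060).

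RNF213, an AAA-type ATPase with ligase activity, is the susceptibility gene of moyamoya disease and is induced by interferon. It had 101 and 103 CPM in nanoparticle libraries, against 87.7 and 89.7 CPM in PBS libraries. With the longest transcript of all 9 it had the lowest log2 fold change but that of TRIP12, 0.20 (SE 0.038). None of 10 other interferon-induced genes that were tested passed (edgeR quasi-likelihood test), with a median log2 fold change of -0.070. Several were low in counts, with an SE of 0.151 for IFIT1, 0.144 for IFIT2, 0.127 for IFIT3, 0.128 for USP18 and 0.275 for MX1. In these a change of the size seen in RNF213 could be missed. ISG15, a ubiquitin-like modifier, had 41.4 and 37.9 CPM in nanoparticle libraries and 37.3 and 38.7 CPM in PBS libraries. An antisense gene that overlaps exons of RNF213, RNF213-AS1, held 53 and 44 counts in nanoparticle libraries and 35 and 27 in PBS libraries, against 1951 or more for RNF213, and the sources used here do not say whether reads were counted by strand. Antisense genes overlapping BIRC6, HERC1 and MYCBP2 had at most 1 count in any library.

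BIRC6, which ubiquitinates caspase-9, SMAC (the product of DIABLO), HTRA2 and the autophagy protein LC3B, had 71.8 and 77.4 CPM in nanoparticle libraries, against 59.9 and 60.5 CPM in PBS libraries. The log2 fold change was 0.31 (SE 0.046), and the nearest libraries were 18.6% apart. Nanoparticle replicate 2 was the higher of the pair in BIRC6 and in 7 other members, all but HERC2, and PBS replicate 2 was the higher in all but MYCBP2. The summed level was 1343 and 1390 CPM in nanoparticle libraries, against 1165 and 1208 CPM in PBS libraries.

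Per length of transcript the members spanned a wide range. Levels were computed as TPM, counts divided by the length of the principal transcript and scaled to the same total in every library, and here they are levels, not differences. TRIP12 was first at 154 ± 3.93 TPM in nanoparticle libraries and 146 ± 1.33 TPM in PBS libraries (mean ± SD, n = 2 each, as for every TPM here). HUWE1 followed with 59.9 ± 1.35 and UBR4 with 32.4 ± 1.33 in nanoparticle libraries, against 50.3 ± 2.43 and 25.3 ± 0.280 in PBS libraries. HERC2 came next, with 15.3 ± 0.0738 in nanoparticle libraries and 11.6 ± 0.247 in PBS libraries. Over the 4 libraries the ranges of HERC2, RNF213, UBR3 and BIRC6 overlapped with those of their neighbours in the order, with no library above 15.4 TPM. MYCBP2 and HERC1 were lowest and also overlapped, at 5.90 ± 0.288 and 4.90 ± 0.149 TPM in nanoparticle libraries and 4.58 ± 0.0376 and 3.85 ± 0.197 TPM in PBS libraries.

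The length of the transcripts moved with these results. Genes other than the members with transcripts of at least 6405 bases, the length of TRIP12, took 11.7% and 11.9% of gene counts in nanoparticle libraries against 11.2% and 11.3% in PBS libraries. Genes under 1000 bases took 5.45% and 5.44% in nanoparticle libraries against 5.65% and 5.69% in PBS libraries. Of the 1831 other tested genes at least as long as TRIP12, 153 were called higher (8.36%) and none lower (edgeR quasi-likelihood test), with a median log2 fold change of 0.070. Above 14000 bases, a limit set after the lengths of the members had been seen, 24 of 128 other genes were called higher (18.8%) and none lower, with a median of 0.13. The 7 members above that limit had a median of 0.32, which is not read as an excess, since they were proposed from this contrast.

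With the trend of level on length taken out of each library, every member had a smaller log2 fold change, and the median fell to 0.18. HERC2 was then at 0.26, MYCBP2 at 0.22, UBR4 at 0.21, HERC1 at 0.20 and BIRC6 at 0.18. UBR3 was at 0.17, HUWE1 at 0.11, RNF213 at 0.045 and TRIP12 at 0.013. Of the 9, HERC2, UBR4 and BIRC6 were still called, where 1.01% of tested genes were called higher after this removal. HUWE1 was called as well with GC content removed besides length, at a log2 fold change of 0.12, where 0.932% were called higher. The 128 other genes above 14000 bases had a median of -0.0054 after the removal of length, with 11 called higher (8.59%). The 7 members of that size had a median of 0.20. Nothing is read from this gap, since the members were proposed from this contrast and the 128 genes were not matched to them in level. What part of any member's difference belongs to length was not tested beyond these fits.

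**Figure D2:**
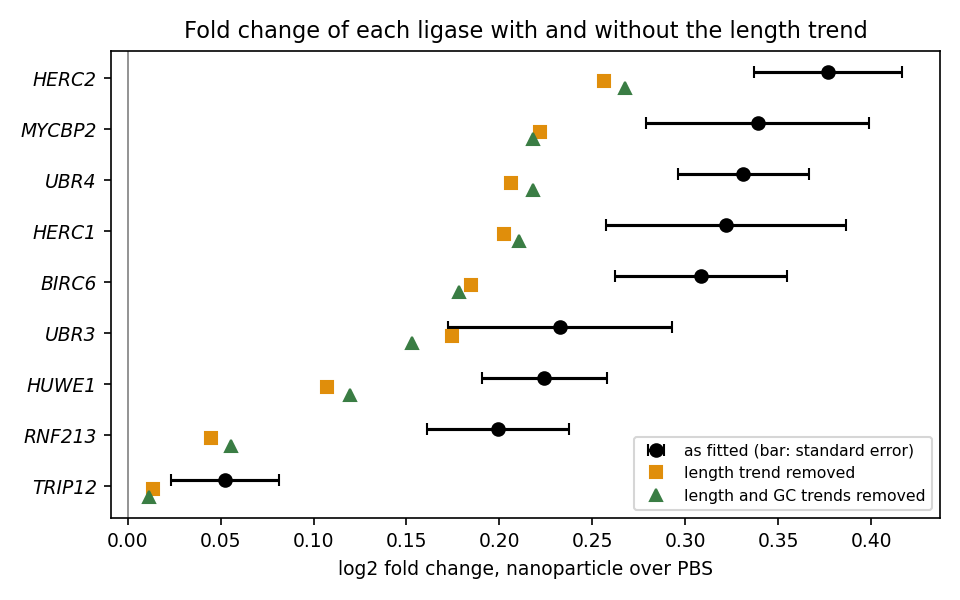
Log2 fold change of nanoparticle over PBS (horizontal axis) for each ligase, as fitted with its standard error (circles), with the length trend removed (squares) and with length and GC trends removed (triangles). Every square lies left of its circle, and HERC2 stays furthest to the right at 0.26, while RNF213 and TRIP12 lie close to 0.

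**Figure D3:**
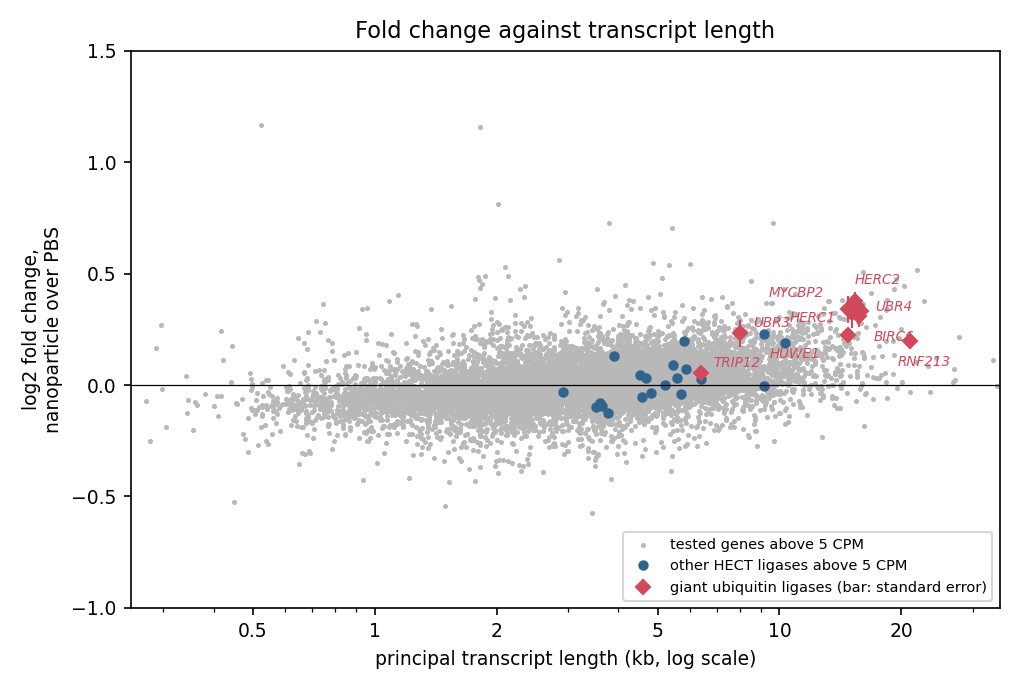
Log2 fold change of nanoparticle over PBS against principal transcript length in kilobases (log axis) for 11080 genes above 5 CPM, of which 4 fall outside the length axis. Diamonds are the 9 giant ligases with standard errors and blue dots are other HECT ligases. The cloud of genes tilts upward with length, and most members lie at its upper right.

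Other ligases and the rest of the pathway were described from lists of 158 genes, of which 154 were tested and 10 passed (edgeR quasi-likelihood test with Benjamini-Hochberg adjustment over all genes, as for all adjusted p below). The other HECT ligases had 22 tested genes, of which 3 rose and none fell, with a median log2 fold change of 0.030. HECTD4, itself a giant ligase with a transcript of 15759 bases, rose to 33.6 and 34.2 CPM in nanoparticle libraries, against 25.9 and 27.3 CPM in PBS libraries (log2 0.35, SE 0.060, adjusted p = 0.00271). HECTD4 missed the threshold once the trend on length was taken out (log2 0.23).

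Of the 5 other UBR box proteins 1 rose and none fell, and the median log2 fold change was 0.11. None of the 4 tested relatives of BIRC6 with BIR domains passed. BIRC3, an inhibitor of apoptosis in NF-kB signalling, had 422 and 481 CPM in nanoparticle libraries and 407 and 416 CPM in PBS libraries (adjusted p = 0.0857). BIRC5, also called survivin, had 253 and 249 CPM in nanoparticle libraries and 264 and 251 CPM in PBS libraries.

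Upstream of the ligases none of 6 ubiquitin and E1 genes passed, with a median log2 fold change of -0.0079. UBB, a polyubiquitin gene, had 830 and 812 CPM in nanoparticle libraries and 848 and 824 CPM in PBS libraries. Of 30 E2 enzymes 2 fell, both partners of the anaphase-promoting complex. UBE2C fell to 254 and 254 CPM in nanoparticle libraries, against 277 and 276 CPM in PBS libraries (log2 -0.12, SE 0.030, adjusted p = 0.0315). UBE2S fell to 276 and 259 CPM in nanoparticle libraries, against 294 and 291 CPM in PBS libraries (log2 -0.13, SE 0.034, adjusted p = 0.0437). Neither passed with the length trend removed, at adjusted p = 0.514 for UBE2C, whose transcript has 850 bases, and 0.138 for UBE2S.

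None of 14 cullin ligase genes passed, with a median of -0.017. DDB1, an adaptor of CUL4 ligases, had 384 and 373 CPM in nanoparticle libraries and 368 and 386 CPM in PBS libraries, and ELOC, an adaptor of CUL2 and CUL5 ligases, had 214 and 222 CPM in nanoparticle libraries and 222 and 225 CPM in PBS libraries. Of 52 deubiquitinases, which take ubiquitin off, 3 rose and none fell, with a median of 0.023. USP34 rose to 128 and 132 CPM in nanoparticle libraries, against 115 and 110 CPM in PBS libraries (log2 0.21, SE 0.037, adjusted p = 0.00422). USP24 rose to 106 and 106 CPM in nanoparticle libraries, against 91.1 and 93.7 CPM in PBS libraries (log2 0.20, SE 0.038, adjusted p = 0.00625). USP9X rose to 137 and 142 CPM in nanoparticle libraries, against 121 and 129 CPM in PBS libraries (log2 0.16, SE 0.038, adjusted p = 0.0296). All 3 have transcripts between 10549 and 12401 bases, and none passed with the length trend removed, at log2 0.11, 0.11 and 0.056 for USP34, USP24 and USP9X.

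Of 8 partners of the giant ligases none passed, with a median log2 fold change of -0.0078. KCMF1, the partner of UBR4, had 222 and 217 CPM in nanoparticle libraries and 218 and 225 CPM in PBS libraries, and MAPK6, a partner of HERC2, had 158 and 163 CPM in nanoparticle libraries and 158 and 159 CPM in PBS libraries. Of 16 reported substrates 1 rose and 1 fell, with a median of 0.0030. CASP9, a substrate of BIRC6, rose to 49.2 and 44.3 CPM in nanoparticle libraries, against 25.6 and 27.7 CPM in PBS libraries (log2 0.81, SE 0.063, adjusted p = 1.78e-07), and also passed with the length trend removed (log2 0.85). MYC, a substrate of HUWE1, fell to 222 and 232 CPM in nanoparticle libraries, against 243 and 261 CPM in PBS libraries (log2 -0.15, SE 0.037, adjusted p = 0.0296), and missed the threshold once length was removed (log2 -0.093). These are levels of mRNA, and no protein was measured here.

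**Figure D4:**
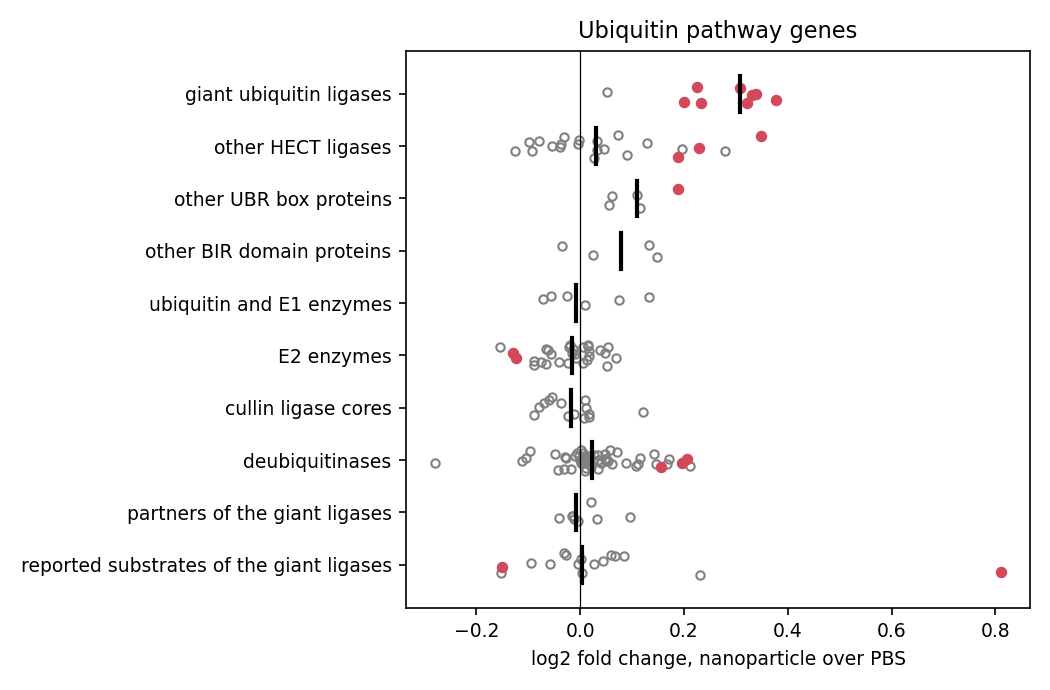
Log2 fold change of nanoparticle over PBS (horizontal axis) for every tested gene of 10 lists of the ubiquitin pathway. Filled dots passed an adjusted p of 0.05, open dots did not, and black bars are medians. The giant ligases have a median of 0.31, and the other lists have medians between -0.017 and 0.11.

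Outside the ubiquitin lists, the profile over the 4 libraries nearest to the mean profile of the 9 members, by Euclidean distance of centred log2(CPM + 1) among 11107 genes of at least 5 CPM, was that of UTRN, which encodes the cytoskeletal linker utrophin (distance 0.0047). UTRN had 104 and 108 CPM in nanoparticle libraries, against 86.8 and 90.6 CPM in PBS libraries. RFX7 (distance 0.023) and ZFHX3 (distance 0.024), both transcription factors, came next. Their transcripts have 12339, 10426 and 17219 bases.

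The calls depended on both PBS libraries. Without PBS replicate 1, or without PBS replicate 2, no gene passed in edgeR, members included, with 1562 and 1672 genes at an unadjusted p under 0.05. Without nanoparticle replicate 2 the members called were HERC2, UBR4 and BIRC6, where 0.342% of tested genes were called higher. Without nanoparticle replicate 1 they were 7, all of the 8 but UBR3, where 0.961% were called higher. DESeq2 called 6 members, where 0.577% of genes were called higher, and left out HERC1 and UBR3. Among the 10 other ubiquitin genes called, CASP9 passed without nanoparticle replicate 2, HECTD4, UBE2C, UBE2S, USP34, USP24, USP9X and MYC did not, and UBE2C, USP24, USP9X and MYC did not pass without nanoparticle replicate 1.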

How the data were processed

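Each of the 4 deposited files gives raw counts by Ensembl gene for 1 library. The labels' protocols state 300 ng of total RNA and a stranded mRNA kit. The submitters' processing notes name bcl2fastq 2.20, cutadapt 3.5, STAR 2.7.6a, Picard, HTSeq 2.0.2 and GRCh38, and neither annotation release nor strand setting is given. Groups follow the treatment label, although titles of nanoparticle libraries include the word control. Rows for reads not assigned to a gene, 13.7% to 14.8% of the total in all, were left out. That share includes reads on several genes (4.78% to 4.81%) and reads not uniquely placed (3.51% to 4.75%).

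Gene IDs were matched to symbols for 61369 rows, and GENCODE 29 gave transcript lengths for 98.2% of tested genes. Counts were filtered with filterByExpr, scaled by TMM and tested, two-sided, by the quasi-likelihood method of edgeR 4.0.16 (glmQLFTest) in R 4.3.3, with Benjamini-Hochberg adjustment over 15778 genes and a threshold of 0.05. The biological coefficient of variation was 2.46%. CPM and TPM were computed here from the deposited counts. Trends of log2 CPM on length and GC were fitted in each library over genes above 5 CPM as robust splines with 4 degrees of freedom (MASS, version 7.3.60.0.1) and removed as offsets.

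The members and lists were chosen with earlier results of these data known, and the length limit of 14000 bases was set and the rule for the HERC2 stretch revised after values were seen. Named genes were all members, up to 4 called genes with the smallest p of each other list or, with none called, up to 2 of the highest CPM, and the 3 profiles nearest to the members. Alternatives were other scalings, filters, DESeq2 1.42.0, limma-voom 3.58.1, a replicate block, each library left out and both trend removals. On simulated counts (15770 genes tested, nanoparticle against PBS) the share of changed genes found was 66% at 1.2-fold and 98% at 1.5-fold. The changed genes averaged at least 100 counts. Of all calls, 2.67% were false. Every gene was simulated with the same dispersion and no length trend was put in, so these shares may not hold for the real data. Figures were drawn with matplotlib 3.10.9. Some genes that this rule names are not reported here.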

Additional observations from a re-analysis of the deposited data

How the results depend on the processing

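Over 14 alternatives all 126 log2 fold changes of the 9 members stayed above 0. Members called, other ubiquitin genes called and all genes called were 8, 10 and 407 as reported, 3, 2 and 229 with the length trend removed, and 4, 4 and 251 with length and GC trends removed. Both removals gave the members a median log2 fold change of 0.18, and the causes of these shifts were not tested. DESeq2's Wald test called 6 members, 6 other ubiquitin genes and 124 genes. With no low-count filter edgeR called 0, 0 and 0 genes, with 8 members, 25 other ubiquitin genes and 2297 genes in all at an unadjusted p under 0.05. With the replicate number as a block 759 genes were called. The numbers are not said to pair the libraries, and deviations of same-numbered libraries correlated at 0.035 across genes. Leaving out 1 library at a time gave 0 to 7 members, 0 to 8 other ubiquitin genes and 0 to 200 genes called, and a member median of 0.25 to 0.35. Without PBS replicate 1 or 2, where a lone PBS library is assumed to vary like the nanoparticle pair, 0 genes were called by edgeR, with 1562 and 1672 at an unadjusted p under 0.05. The split of calls was 223 higher to 190 lower under upper-quartile scaling, against 276 to 131 as reported. The log2 fold change of TRIP12, 0.052, had an SE of 0.029 and was not called in any of these fits, and recovery of changes below 1.2-fold was not simulated.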
